A study of Mus musculus with 8 samples.

Results

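Cell cycle and DNA replication genes were measured by RNA-seq of polyadenylated RNA in whole mouse brain lacking caveolin 1, the coat protein of caveolae. The 53 genes were chosen by name, with earlier results of these data known, out of 34299 genes in the count table, and all 53 were found there. They were sorted by phase into 6 G1/S genes, 17 S phase genes and 30 G2/M genes, and by role into 7 lists. The WT day 15 group held 3 libraries of wild-type fetal brain at gestation day 15. The KO day 15 group held 3 libraries of Cav1 knockout fetal brain of the same age, and the KO week 70 group held 2 libraries of aged Cav1 knockout brain. No wild-type week 70 library was analysed here, so age was compared only within the knockout, and both comparisons share the KO day 15 libraries. Strain, sex, litter and the design of the knockout allele are not given in the sources used here. The labels call the fetal samples biological replicates, and nothing says whether litters differed or how many animals made up the week 70 libraries, so that p-values measure the spread between these samples.

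A dividing cell passes through G1, copies its DNA in S phase, and separates the copies in mitosis. D and E cyclins release E2F factors at the G1/S border, origins of replication are then licensed by loading the MCM helicase, and the mitotic genes that follow are switched on through the MuvB, B-MYB and FOXM1 factors. In fetal brain these genes are expressed chiefly by neural progenitors lining the ventricles, whereas neurons have left the cycle.

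Total counts ranged from 14110031 to 20833397 per library, and every KO day 15 library was shallower than every WT day 15 library, so that depth and genotype cannot be told apart. Cav1 had 218 to 367 counts in the WT libraries, 0 to 3 in KO day 15 and 1 to 5 in KO week 70. The 2 week 70 libraries differed in Xist (7969 and 4 counts) and in summed Y-linked counts (0 and 2219), whereas each fetal library held at least 54531 Xist counts and at most 4 Y-linked counts. WT replicate 1 stood apart by summed fibroblast and meningeal markers (4465 normalised CPM against 318 and 532 in the other WT libraries). Processed pseudogenes took 3.55 to 3.69% of counts in WT, 6.15 to 6.49% in KO day 15 and 0.306% in both week 70 libraries.

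Levels below are normalised CPM, counts per 1000000 reads on library sizes scaled by the TMM method, as mean ± SD (n = 3 for each day 15 group, n = 2 for week 70). A gene was called when the p-value of edgeR's quasi-likelihood F-test, adjusted by the Benjamini-Hochberg method over all tested genes, was under 0.05. Fold changes are on the log2 scale with their standard errors (SE).

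At day 15 the knockout brain held less RNA of most of these genes. Large falls were seen in the D cyclins and in 6 of the 10 members listed for origin licensing. Of the 53 members, 33 were lower in KO, 9 were higher and 11 were not called, with a median log2 fold change of -0.53. Across all 19147 tested genes 62.6% were called, 32.5% lower and 30.1% higher, with a median of 0.03. A fall of at least 1 on the log2 scale was called for 17 members and a rise of that size for 0, beside 10.8% and 8.53% of all tested genes; the count of such falls was 10 with the correction for length and GC content described below and 13 with upper-quartile scaling. The CPM ranges of the genotypes did not overlap for 34 members that were lower and 8 that were higher in KO, beside 36.2% and 32.1% of tested genes. In bulk tissue, fewer cells of a type and less RNA per cell cannot be told apart.

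By phase, 5 of 6 G1/S genes were lower and 1 was higher (median -0.53), 12 of 17 S phase genes were lower and 3 higher (median -1.08), and 16 of 30 G2/M genes were lower and 5 higher (median -0.32). Summed over the G1/S genes, the level was 639 ± 54.1 CPM in WT and 285 ± 15.6 in KO day 15, a KO to WT ratio of 0.445. The S phase genes summed to 783 ± 61.0 CPM in WT and 457 ± 11.2 in KO, a ratio of 0.583. The G2/M genes summed to 1439 ± 150 CPM in WT and 1005 ± 35.6 in KO, a ratio of 0.699. The genotypes did not overlap in any of the 3 sums. The ratio of the G2/M sum to the S phase sum was 1.86, 1.88 and 1.77 in the WT libraries and 2.07, 2.21 and 2.33 in the KO day 15 libraries, so that every KO library lay above every WT library.

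**Figure D1:**
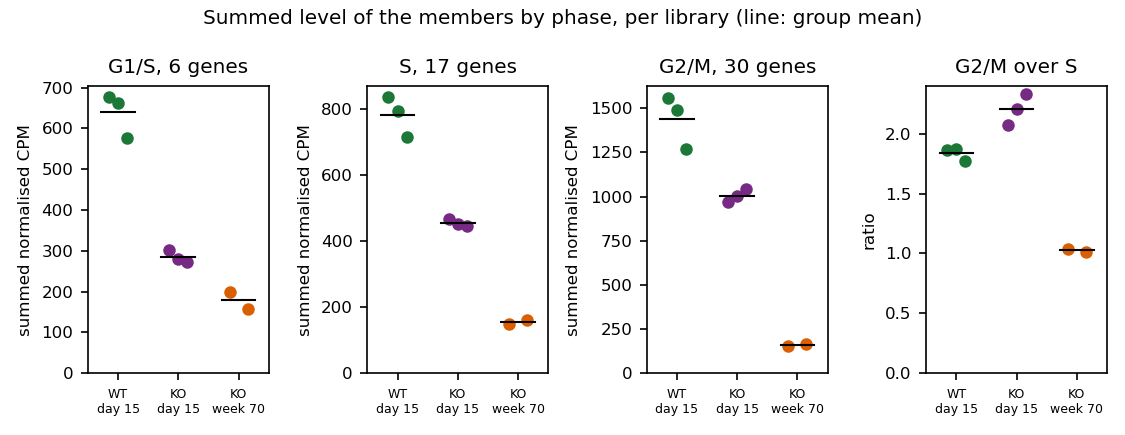
Summed normalised CPM of the 6 G1/S, 17 S phase and 30 G2/M genes in each of the 8 libraries, and the ratio of the G2/M sum to the S phase sum; points are libraries and lines are group means. All 3 sums are lower in KO day 15 than in WT day 15 and lowest at week 70, and the ratio runs from 1.77 to 1.88 in WT, from 2.07 to 2.33 in KO day 15 and from 1.02 to 1.04 at week 70. Anln alone gives 82.1 and 98.6 CPM of the week 70 G2/M sums.

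Across all tested genes the KO to WT difference fell with transcript GC content (Spearman's rho -0.475 over 19050 genes with an annotation) and with transcript length (rho -0.388). Over the 53 members rho was -0.66 for GC content and -0.22 for length, a description across genes that share the same libraries. Median GC content was 50.9% for the 33 members called lower, 45.3% for the 9 called higher and 44.1% for the 11 not called. A second fit, with a smooth of each library on length and GC content as an offset, is therefore given beside the first and is named the corrected fit. It called 35 members lower, 3 higher and 15 neither (median -0.45), beside 50.4% called over 19050 genes, 24.5% lower and 25.9% higher. Of the 33 members called lower in the first fit 29 were called lower in the corrected fit, and of the 9 called higher 3 were still called higher, Pcna, Cdk1 and Mad2l1. Upper-quartile scaling in place of TMM moved the median of all tested genes to 0.20 and the calls to 65.5% of genes, 25.7% lower and 39.8% higher; against it 30 members were lower and 10 higher, with a median of -0.36. In the corrected fit the medians were -0.48 for G1/S, -0.68 for S phase and -0.44 for G2/M.

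**Figure D2:**
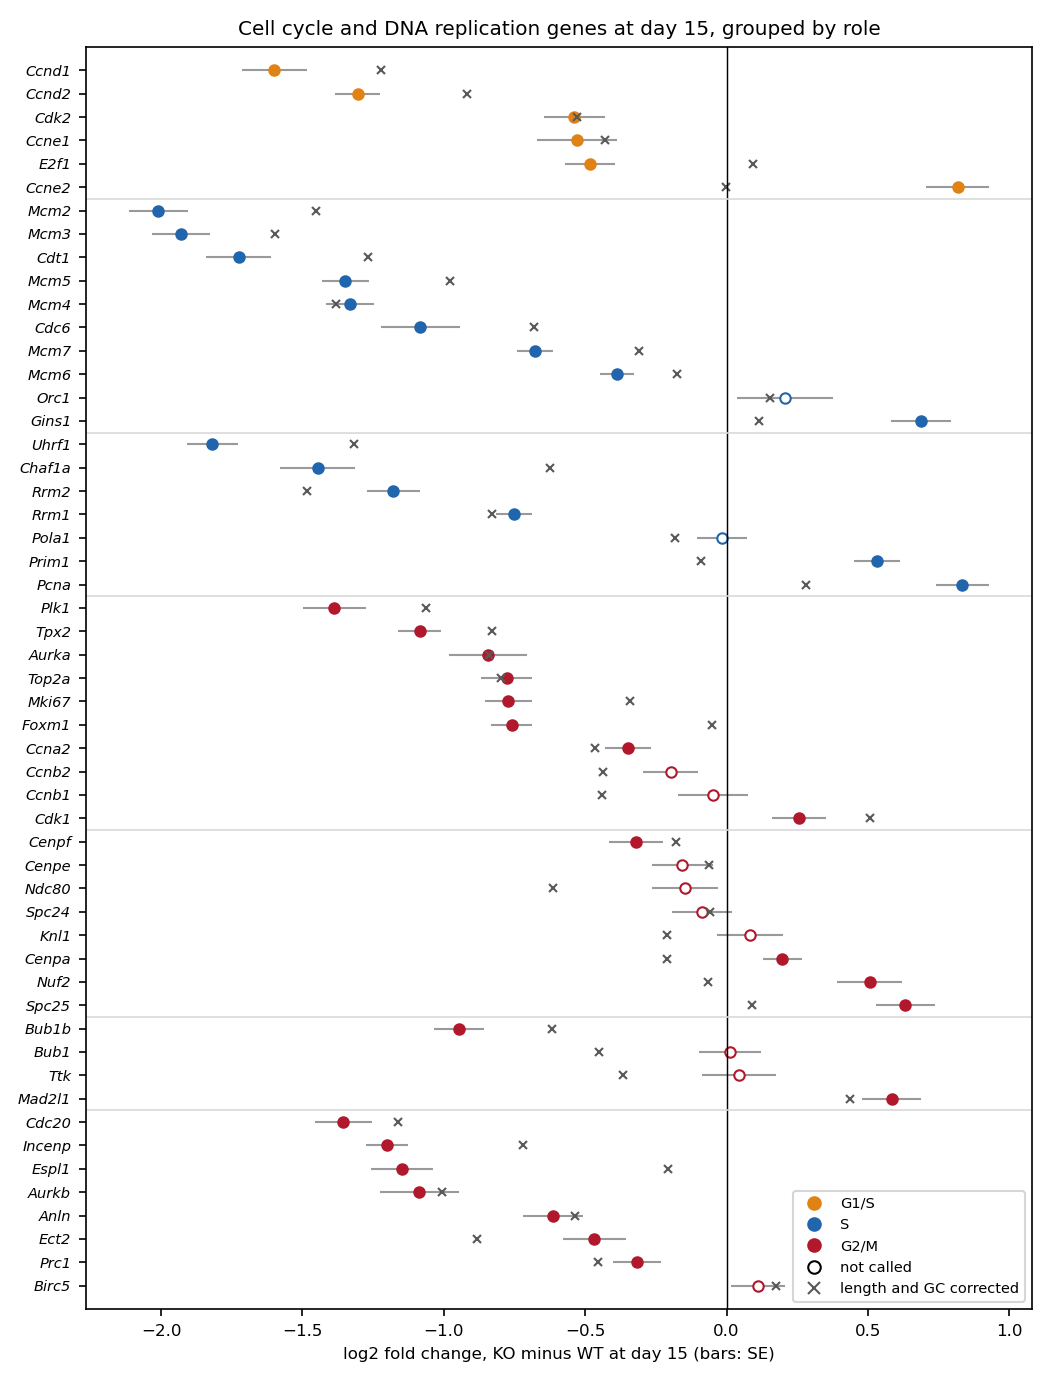
Log2 fold change of each of the 53 genes, KO minus WT at day 15, with bars of 1 SE, grouped by role and coloured by phase; open circles were not called and crosses give the corrected fit. Mcm2 lies furthest to the left at -2.01, followed by Mcm3 at -1.93 and Uhrf1 at -1.82, and the rises, up to 0.83 for Pcna, move toward or past 0 in the corrected fit for every riser except Cdk1.

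Markers of neural progenitors were also lower, as were those of several other cell types. All 6 intermediate progenitor markers (Eomes, Neurog1, Neurog2, Insm1, Btg2 and Gadd45g) fell, and their summed level was 411 to 476 CPM in WT and 172 to 189 in KO day 15. Of 12 neural progenitor markers 11 fell and Fabp7 rose, and the sum was 1829 to 1914 CPM in WT and 1296 to 1408 in KO. Of 8 immature neuron markers 5 fell and 2 rose, with sums of 5750 to 6340 CPM in WT and 4370 to 4415 in KO. All 6 endothelial markers fell as well (171 to 235 CPM in WT, 50.8 to 65.9 in KO), and 6 of 8 erythroid markers rose (1040 to 1322 CPM in WT, 3603 to 4428 in KO). No marker of these 5 lists was at 0 in both fetal groups. Of the mature neuron markers 4 of 6 fell and 1 rose (583 to 662 CPM in WT, 486 to 502 in KO), of the microglial 3 of 5 fell and 1 rose (35.5 to 61.9, then 19.5 to 22.1), and of the astrocyte 2 of 5 fell and 1 rose (97.5 to 131, then 44.6 to 45.4). Of the fibroblast and meningeal markers 5 of 7 fell (318 to 4465 CPM in WT, 71.6 to 144 in KO), and all 3 tested cartilage markers fell (88.8 to 533, then 41.8 to 47.6) (Matn1, not tested, was at 0 in every KO day 15 library). Sums of oligodendrocyte and skeletal muscle markers overlapped between the genotypes. These counts come from the first fit, in which 32.5% of all tested genes were lower. The corrected fit, with 24.5% of genes lower, called 9 of 12 neural progenitor, 2 of 6 mature neuron and 1 of 3 cartilage markers lower. Its counts of lower markers were the same for the intermediate progenitor, immature neuron, endothelial, microglial, astrocyte and fibroblast lists. The part of these cell types in the results below was not tested. Without WT replicate 1, the library with the high fibroblast and meningeal markers, 33 members were lower and 8 higher.

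The G1 cyclins and their partners had the lowest KO to WT ratio of summed levels among the 7 role lists, and most of that sum was Ccnd2. Ccnd2, the D-type cyclin of neural progenitors and the most abundant member, had 526, 532 and 452 CPM in the WT libraries, 215, 195 and 186 in KO day 15. At week 70 it had 85.3 and 60.2. Its KO to WT difference was -1.31 (SE 0.08, adjusted p = 2.61e-07). Ccnd1, the other D cyclin measured, had 70.4, 57.8 and 53.7 CPM in WT and 22.3, 19.1 and 17.1 in KO day 15 (-1.60, SE 0.11, adjusted p = 8.05e-07). Both D cyclins thus lay below every WT library in every KO day 15 library. Per kilobase of exon Ccnd2 stood at 4.19 ± 0.434 times Ccnd1 in WT and 5.12 ± 0.302 times in KO day 15.

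The later G1/S genes moved less. E2f1, a transcription factor of S phase genes, fell from 23.7 ± 1.03 to 16.5 ± 0.961 CPM (-0.48, adjusted p = 0.000759), but its corrected difference was 0.09 and not called. Cdk2, the kinase of E and A cyclins, fell by 0.54 and Ccne1 by 0.53. Ccne2, the second E cyclin, was the exception, with 15.9, 13.8 and 15.0 CPM in WT and 23.5, 23.7 and 29.2 in KO (0.82, SE 0.11, adjusted p = 9.05e-05). The rise of Ccne2 was not seen in the corrected fit (-0.00, adjusted p = 0.984). It has the lowest GC content of the 53 genes, 36.3%. The ratio of Ccne2 to Ccne1 per kilobase of exon was 1.34, 1.35 and 1.41 in WT and 3.08, 3.03 and 4.46 in KO day 15. Ccne1 has a GC content of 52.7% and a corrected difference of -0.43, and the difference in GC content between the 2 genes remains in this ratio.

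Origin licensing had the lowest median of the 7 role lists. Of its 10 genes 8 fell, 1 rose and 1 was not called (median -1.21), and in the corrected fit 8 fell and 2 were not called (median -0.83). All 6 subunits of the MCM2-7 helicase ring fell in both fits. Mcm2 had 74.4, 70.6 and 56.7 CPM in WT and 15.7, 16.0 and 17.1 in KO day 15, the largest change of any member (-2.01, SE 0.10, adjusted p = 9.66e-08). Mcm3 followed with -1.93, Mcm5 with -1.35 and Mcm4 with -1.33. Mcm7 fell less, from 92.3, 87.1 and 81.8 CPM to 55.5, 53.3 and 49.9 (-0.68, adjusted p = 5.5e-06), and Mcm6 least, from 68.6, 64.8 and 72.6 CPM to 52.7, 51.3 and 49.2 (-0.39, adjusted p = 0.000271). No subunit overlapped between the genotypes.

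The subunits, which form a ring with a single copy of each, therefore differed more among themselves in the knockout. In WT the mean level per kilobase of exon ran from 9.67 CPM for Mcm2 to 19.7 for Mcm7, a 2.03-fold range, and in KO day 15 from 2.34 to 12, a 5.12-fold range. Per kilobase, Mcm6 was 1.37, 1.37 and 1.91 times Mcm2 in the WT libraries and 5.00, 4.79 and 4.31 times Mcm2 in KO day 15. Mcm3 kept close to Mcm2, at 1.42 ± 0.0614 times its level in WT and 1.5 ± 0.206 times in KO. Exon length here joins all annotated isoforms, 6956 bases for Mcm2 against 3371 in its longest coding transcript. The order of levels between genes, and the size of a ratio or range, depend on that choice. The relative change of a ratio between groups does not. Differences between subunits in GC content remain in such ratios. In the corrected fit the order was similar, with -1.60 for Mcm3, -1.45 for Mcm2, -1.38 for Mcm4, -0.98 for Mcm5, -0.31 for Mcm7 and -0.17 for Mcm6.

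Cdt1 and Cdc6, which help to load the ring, fell with it, but the origin recognition subunits did not. Cdt1, a loading factor, dropped from 16.6 ± 0.589 to 4.87 ± 0.311 CPM (-1.73, adjusted p = 4.7e-07), and Cdc6, its partner, from 9.71 ± 0.187 to 4.46 ± 0.497 CPM (-1.08, adjusted p = 5.84e-05). Orc1, the origin recognition subunit whose level varies with the cycle, had 4.26, 3.65 and 3.87 CPM in WT and 4.0, 4.34 and 4.87 in KO, with overlapping groups and no call (0.21, adjusted p = 0.313). Outside the 53, the subunits Orc2 (0.48), Orc3 (0.44), Orc4 (0.95), Orc5 (0.69) and Orc6 (0.91) were called higher. In the corrected fit Orc2 (0.33), Orc4 (0.34) and Orc6 (0.35) were called higher, and Orc3 (-0.10) and Orc5 (0.12) were not called. Gins1, part of the GINS complex that activates the loaded helicase, was the only gene of this role list that rose. It went from 10.3, 11.1 and 10.1 CPM to 15.3, 16.6 and 17.3 (0.69, adjusted p = 0.000245). Its corrected difference was 0.11 and not called, and its transcript is the shortest of the 53, at 1087 bases.

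Many S phase promoters hold E2F sites. Promoter sequences of 42 members were found in RefSeq on GRCm38.p6, each with 250 bases before and 50 after the annotated start. Both strands were searched for TTTCCCGC, TTTCGCGC, TTTGCCGC and TTTGGCGC, which can overlap each other on opposite strands. A gene was counted when any of its promoters held these letters, which was so for 9 of 15 S phase genes, 1 of 24 G2/M genes and 1 of 3 G1/S genes, beside 2.6% of all 27025 genes with a promoter of the same length. The promoters of 4 licensing genes with such a match are shown from base -110 to base 50, because the genes share the motif and differ in the knockout. Mcm3 and Cdt1 fell by over 1 on the log2 scale, Mcm6 fell by 0.39 and Orc1 was not called. Capitals mark the E2F matches, on either strand, and each sequence is written along the strand of its gene.
Mcm3 (chr1:20820263-20820422, minus strand): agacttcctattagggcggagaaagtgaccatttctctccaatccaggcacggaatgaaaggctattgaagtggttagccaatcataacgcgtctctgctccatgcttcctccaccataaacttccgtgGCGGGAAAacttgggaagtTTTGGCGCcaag
Cdt1 (chr8:122567905-122568064, plus strand): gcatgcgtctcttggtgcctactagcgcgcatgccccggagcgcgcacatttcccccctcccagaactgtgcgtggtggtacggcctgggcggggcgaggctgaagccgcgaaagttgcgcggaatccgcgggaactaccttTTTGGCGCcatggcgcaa
Mcm6 (chr1:128359656-128359815, minus strand): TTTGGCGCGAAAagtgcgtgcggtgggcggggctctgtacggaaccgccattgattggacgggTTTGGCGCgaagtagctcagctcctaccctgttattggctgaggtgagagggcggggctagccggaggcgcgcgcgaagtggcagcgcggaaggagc
Orc1 (chr4:108579344-108579503, plus strand): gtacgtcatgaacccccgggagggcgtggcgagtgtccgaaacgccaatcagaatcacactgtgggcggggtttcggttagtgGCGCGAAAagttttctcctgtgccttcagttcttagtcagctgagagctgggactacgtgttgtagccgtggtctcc

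The matches in Mcm3 and Cdt1 lie after the annotated start and those in Mcm6 and Orc1 before it. A match is a description of the letters only, and no binding was measured. The 9 members with an E2F match and no CHR match (defined with the mitotic genes) had a median difference of -1.08, and of -0.68 in the corrected fit.

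Genes of DNA synthesis were split. Of 7 genes 4 fell, 2 rose and 1 was not called (median -0.75). Uhrf1, which recruits the maintenance methyltransferase to newly copied DNA, had 64.3, 60.8 and 54.3 CPM in WT and 16.9, 17.8 and 14.8 in KO day 15 (-1.82, SE 0.09, adjusted p = 7.36e-08). Chaf1a, a subunit of the histone chaperone at the fork, fell from 28 ± 3.48 to 10 ± 1.53 CPM (-1.45), although 52.5% of its exonic bases are also exon of Ubxn6 on the opposite strand and the use of strand in counting is not stated. The subunits of ribonucleotide reductase, which makes deoxynucleotides, both fell. Rrm1 went from 117, 108 and 99.6 CPM to 64.3, 61.2 and 61.8 (-0.75, adjusted p = 2.77e-06), and Rrm2 from 77.7 ± 9.56 to 33.4 ± 1.85 CPM (-1.18). All 4 genes that fell were also lower in the corrected fit.

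The polymerase, primase and clamp genes among the 53, Pola1, Prim1 and Pcna, were not called lower. Pola1, the catalytic subunit of DNA polymerase alpha, had 23.2, 25.7 and 22.9 CPM in WT and 22.0, 23.4 and 23.7 in KO, with overlapping groups (-0.02, adjusted p = 0.886). Prim1, the primase of the same complex, had 29.3, 28 and 25.0 CPM in WT and 39.7, 36.1 and 39.9 in KO (0.53, adjusted p = 0.000217), and no call in the corrected fit (-0.09). Pcna, the sliding clamp of the polymerases, had 45.8, 39.6 and 35.3 CPM in WT and 76.4, 65.3 and 67.8 in KO (0.83, SE 0.09, adjusted p = 2.03e-05). Every KO library exceeded every WT library for Pcna and Prim1. The rise of Pcna was called in the corrected fit at 0.28 (adjusted p = 0.031) and, with the reads of its processed pseudogene added, at 0.39 (adjusted p = 0.00072), less than the 0.83 of the first fit by over 1.5 times. Values of Pcna are uncertain for this reason, since its processed copy aligns to it at 99.2% identity and the handling of reads that match both is not stated.

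**Figure D3:**
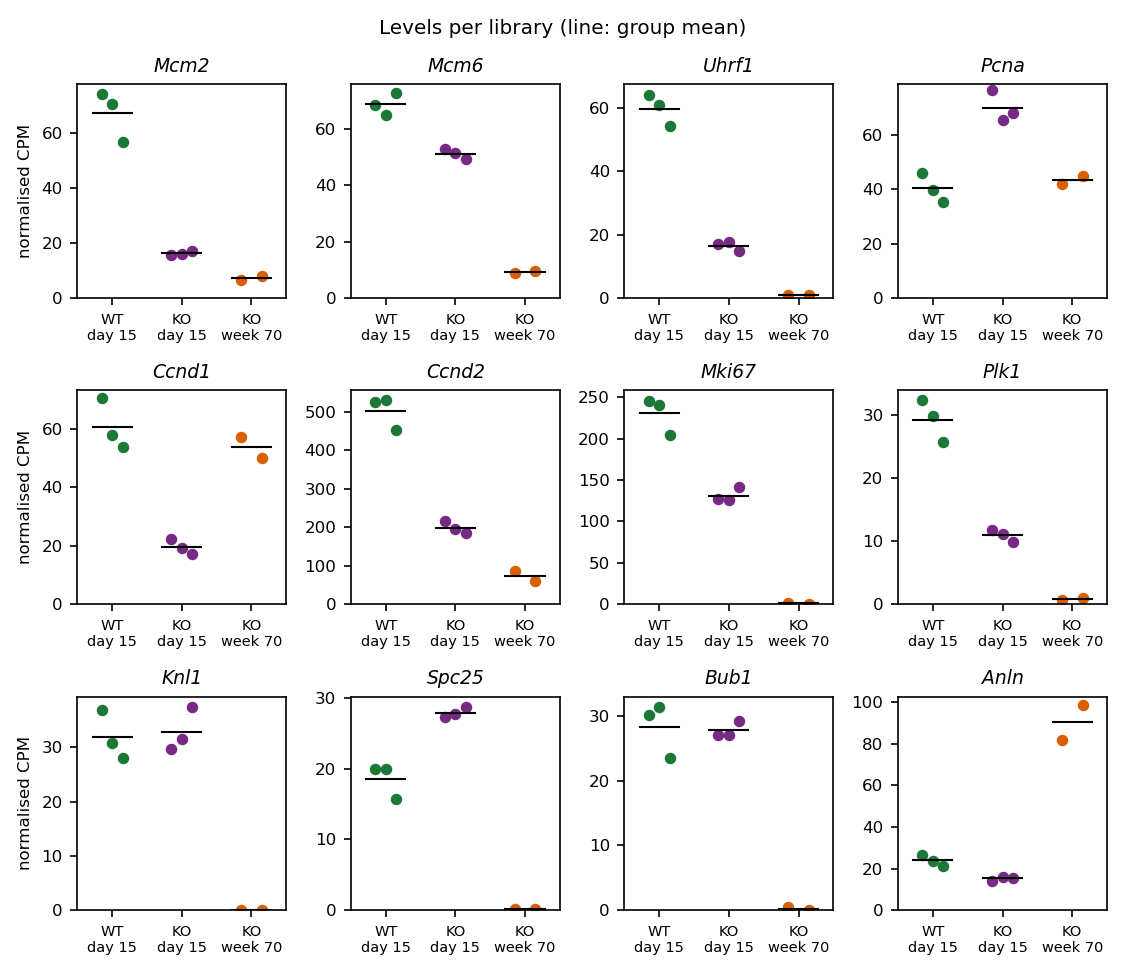
Normalised CPM of 12 of the 53 genes in each of the 8 libraries; points are libraries, lines are group means, and each vertical axis starts at 0. Mcm2, Uhrf1, the D cyclins, Mki67 and Plk1 are lower in every KO day 15 library than in any WT library, Pcna and Spc25 are higher, Knl1 and Bub1 overlap, and Ccnd1 and Anln are higher at week 70 than in KO day 15.

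Among the 10 genes that drive G2 and entry into mitosis, 7 fell, 1 rose and 2 were not called (median -0.77). Mki67, the chromosome surfactant used as a proliferation marker, had 246, 241 and 205 CPM in WT and 127, 125 and 142 in KO day 15 (-0.77, SE 0.08, adjusted p = 1.59e-05). Top2a, the topoisomerase that untangles sister chromatids, fell from 213 ± 28.6 to 121 ± 3.44 CPM (-0.78). Foxm1, a transcription factor of mitotic genes, fell from 58.3 ± 4.90 to 33.5 ± 0.750 CPM (-0.76, adjusted p = 6.52e-06), but its corrected difference was -0.05 and not called. Plk1, the mitotic kinase with the largest change in the list, had 32.3, 29.9 and 25.7 CPM in WT and 11.7, 11.1 and 9.86 in KO (-1.39, SE 0.11, adjusted p = 1.72e-06). Tpx2, an activator of Aurora A at the spindle, had 71.5, 69.7 and 61.1 CPM in WT and 32.8, 29.7 and 30.3 in KO (-1.09, adjusted p = 6.35e-07), and Aurka itself fell by 0.84. The genotypes did not overlap for any of these 6 genes.

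In the first fit the mitotic cyclins and their kinase changed little beside these regulators. Ccna2 fell by 0.35 (adjusted p = 0.00375), a call lost with upper-quartile scaling (-0.18, adjusted p = 0.0847). In the corrected fit Ccna2 had -0.46, and the regulators -0.05 (Foxm1), -0.34 (Mki67), -0.80 (Top2a), -0.83 (Tpx2), -0.84 (Aurka) and -1.06 (Plk1). Ccnb1 had 21.8, 25.4 and 18.0 CPM in WT and 20.7, 21.3 and 19.3 in KO (-0.05, adjusted p = 0.75), and Ccnb2 had 18.9, 20.4 and 17.6 CPM in WT and 16.3, 16.4 and 15.5 in KO (-0.20, adjusted p = 0.0941). Reads of Ccnb1 may be shared with processed copies of 99.2% identity or less, which makes its values uncertain. Neither B cyclin was called, although Ccnb2 was lower in every KO library, and both were called lower in the corrected fit at -0.44 (adjusted p = 0.0132 and 0.00308). Cdk1, the kinase they activate, had 35.8, 33.0 and 27.7 CPM in WT and 38.3, 38.8 and 35.0 in KO, with overlapping groups, and was called higher (0.26, SE 0.09, adjusted p = 0.0372; corrected 0.51, adjusted p = 0.000954). The call of Cdk1 was lost without WT replicate 2 or 3 or KO day 15 replicate 1 or 2, at adjusted p of 0.0684 to 0.152.

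The CHR element, bound by MuvB complexes at mitotic genes, was searched in the same promoters as TTTGAA or TTCGAA on both strands. It was present for 19 of 24 G2/M genes and 2 of 15 S phase genes, beside 21.7% of all genes. CCAAT, the letters of NF-Y sites, was present for 32 of the 42 members, beside 41.1% of all genes. The promoters of 4 mitotic genes with a CHR match are shown over the same bases, again because the motif is shared and the response is not. Plk1 and Cdc20, the activator of the anaphase-promoting complex, fell by over 1 on the log2 scale, Bub1 was not called and Spc25 was called higher in the first fit. Capitals mark the CHR matches.
Plk1 (chr7:122159325-122159484, plus strand): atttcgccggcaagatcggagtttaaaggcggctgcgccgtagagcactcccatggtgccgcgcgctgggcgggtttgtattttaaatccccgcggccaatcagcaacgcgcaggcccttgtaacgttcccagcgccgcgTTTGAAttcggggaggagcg
Cdc20 (chr4:118437294-118437453, minus strand): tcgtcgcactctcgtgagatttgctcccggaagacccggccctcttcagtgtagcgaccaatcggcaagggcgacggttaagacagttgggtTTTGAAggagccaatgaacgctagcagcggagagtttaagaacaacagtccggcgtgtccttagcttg
Bub1 (chr2:127831810-127831969, minus strand): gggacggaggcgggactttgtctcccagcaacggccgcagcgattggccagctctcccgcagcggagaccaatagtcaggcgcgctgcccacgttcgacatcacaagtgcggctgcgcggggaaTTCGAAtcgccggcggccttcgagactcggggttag
Spc25 (chr2:69206164-69206323, minus strand): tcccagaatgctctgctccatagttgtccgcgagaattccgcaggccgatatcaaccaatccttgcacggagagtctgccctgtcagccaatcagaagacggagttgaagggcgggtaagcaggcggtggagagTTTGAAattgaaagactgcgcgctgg

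The 19 members with a CHR match and no E2F match had a median difference of -0.47 (corrected -0.46), and 12 of them were called lower and 2 higher. The 12 members with neither match had a median of -0.10 (corrected -0.08), with 5 called lower and 4 higher. Only 2 members held both, 1 called lower and 1 higher, with a median of -0.21 (corrected 0.10). Mcm2, the member with the largest fall, had a CHR match and no E2F match.

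Kinetochore genes, whose products tie chromosomes to the spindle, stood apart from the licensing genes: 1 of 8 fell, 3 rose and 4 were not called (median -0.00). Their summed level was 275 ± 27.9 CPM in WT and 271 ± 21.1 in KO day 15, with overlapping groups. Spc25 rose most, from 19.9, 19.9 and 15.6 CPM to 27.2, 27.7 and 28.8 (0.63, SE 0.11, adjusted p = 0.000385). Nuf2, another subunit of the NDC80 complex, rose from 21.5 ± 3.32 to 29.7 ± 2.17 CPM (0.51, adjusted p = 0.00323), and the centromeric histone Cenpa rose from 44.4, 45.6 and 40.2 CPM to 47.0, 48.9 and 49.3 (0.20, adjusted p = 0.029). None of these rises was called in the corrected fit, in which Spc25 had 0.09, Nuf2 -0.07 and Cenpa was called lower at -0.21 (adjusted p = 0.0197). The rise of Cenpa was also not called without WT replicate 1 or 3 or KO day 15 replicate 2 or 3, at adjusted p of 0.0616 to 0.137. Cenpf, an outer corona protein, was the gene that fell, from 85.8, 87.5 and 71.4 CPM to 58.2, 61.3 and 71.0 (-0.32, adjusted p = 0.0137; corrected -0.18 and with upper-quartile scaling -0.15, neither called). The corrected fit called 2 of the 8 lower and 0 higher, with a median of -0.12.

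The other 4 kinetochore genes overlapped between the genotypes. Knl1, the scaffold for checkpoint proteins, had 36.9, 30.9 and 28.1 CPM in WT and 29.7, 31.5 and 37.5 in KO (0.08, adjusted p = 0.553). Ndc80, the microtubule-binding subunit, had 15.8, 16.3 and 13.2 CPM in WT and 12.8, 12.8 and 14.2 in KO (-0.15, adjusted p = 0.289), and was called lower in the corrected fit at -0.61 (adjusted p = 0.000829). Spc24 had 14.3, 13.8 and 14.8 CPM in WT and 11.9, 13.9 and 13.6 in KO (-0.09, adjusted p = 0.501). Cenpe, the kinetochore motor, had 54.5, 50.1 and 42.4 CPM in WT and 38.2, 41.8 and 48.3 in KO (-0.16, adjusted p = 0.226). Within the NDC80 complex, Spc25 was 2.56, 2.49 and 2.42 times Ndc80 per kilobase of exon in WT and 4.33, 4.40 and 4.12 times in KO day 15, without overlap, whereas the ratio of Spc24 to Ndc80 was 2.42 ± 0.371 and 2.5 ± 0.214.

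The 4 spindle checkpoint genes, which hold anaphase until chromosomes are attached, gave 1 fall, 1 rise and 2 without a call. Bub1b, which encodes the checkpoint protein BubR1, fell from 47.8, 45.2 and 39.0 CPM to 21.7, 23.4 and 21.6 (-0.94, SE 0.09, adjusted p = 5.45e-06). Its relative Bub1, a checkpoint kinase, had 30.2, 31.5 and 23.5 CPM in WT and 27.1, 27.2 and 29.3 in KO (0.01, adjusted p = 0.935). The ratio of Bub1 to Bub1b per kilobase of exon was 0.620, 0.684 and 0.591 in WT and 1.22, 1.14 and 1.33 in KO day 15, so that every KO library exceeded every WT library. Ttk, the kinase that starts the checkpoint, had 17.3, 13.6 and 16.3 CPM in WT and 14, 15.0 and 18.3 in KO (0.04, adjusted p = 0.785). Mad2l1, the inhibitor of Cdc20, rose from 25.8 ± 3.30 to 37.6 ± 3.29 CPM (0.58, adjusted p = 0.000646; corrected 0.44, adjusted p = 0.00296). In the corrected fit Bub1b (-0.62), Bub1 (-0.45) and Ttk (-0.37) were called lower, so that 3 of 4 fell. The difference in GC content, 41.0% for Bub1 and 50.4% for Bub1b, remains in the ratio of these 2 genes.

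Of 8 genes of the chromosomal passenger complex, anaphase and cytokinesis 7 fell and 1 was not called (median -0.85). Incenp, the scaffold of the passenger complex, fell from 64.5, 63.1 and 57.5 CPM to 27.2, 27.0 and 24.1 (-1.20, SE 0.07, adjusted p = 2.79e-07), and its kinase Aurkb fell by 1.09. Birc5, the survivin subunit of the same complex, had 20.3, 21.4 and 17.9 CPM in WT and 21, 20.5 and 21.1 in KO, overlapped and was not called (0.11, adjusted p = 0.327), but was called higher with upper-quartile scaling (0.28, adjusted p = 0.021). Cdc20 fell from 44.6, 42.6 and 35.7 CPM to 16.7, 14.7 and 15.4 (-1.36, SE 0.10, adjusted p = 9.59e-07). Espl1, the protease that cuts cohesin, fell by 1.15 (corrected -0.21, not called). Of the cytokinesis genes, Prc1, which bundles midzone microtubules, fell from 57.1, 56.1 and 46.5 CPM to 40.0, 41.3 and 43.2 (-0.32, adjusted p = 0.00745, not called with upper-quartile scaling at -0.15), Ect2 fell by 0.47 and Anln by 0.61.

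**Figure D4:**
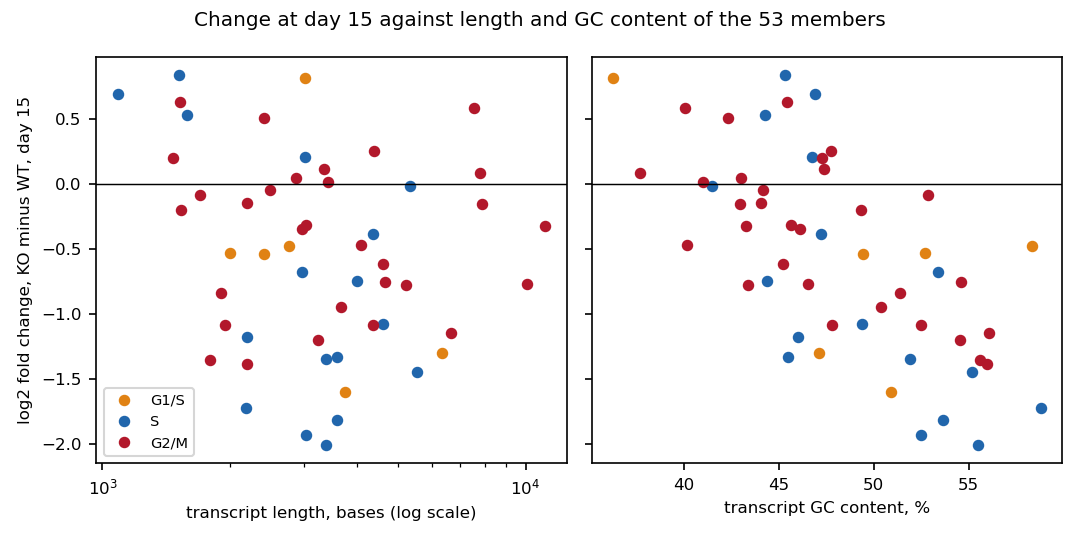
Log2 fold change of the 53 genes at day 15 (KO minus WT, first fit) against transcript length in bases on a log axis (left) and transcript GC content in percent (right), coloured by phase. The genes called higher have GC contents of 36.3 to 47.8%, and rho over the 53 genes is -0.22 for length and -0.66 for GC content.

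By week 70 most of these genes were lower than in KO day 15, many mitotic genes to near or below the detection limit. Against KO day 15, 48 members were lower at week 70, 4 were higher and 1 was not called, with a median of -3.40. Over all 20000 tested genes 82% were called, 44.4% lower and 37.6% higher, with a median of -0.19. The groups did not overlap for 52 members, 48 lower and 4 higher, beside 87.9% of tested genes, 45.6% lower and 42.3% higher. The corrected fit called 48 members lower and 3 higher, beside 78.7% of 19896 genes, 39% lower and 39.7% higher. Upper-quartile scaling moved the median of all genes to -0.44 and gave 49 members lower and 3 higher, beside 82.3% of genes, 49.8% lower and 32.4% higher; under it and in the corrected fit Incenp was called lower. The members together took 0.204 to 0.207% of counts in KO day 15 and 0.0370 to 0.0377% at week 70. Of the 53 members 35 reached the filter's level of 0.656 CPM in both week 70 libraries, and of these 30 were lower, 4 higher and 1 not called. The other 18 passed the filter only through their day 15 level, so that their difference was bound to appear.

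The median difference was -0.48 for G1/S with 3 lower and 3 higher, -1.61 for S phase with all 17 lower, and -5.10 for G2/M with 28 lower, 1 higher and 1 not called. Of the 18 members that passed only through day 15, 16 are G2/M genes and 2 are S phase genes, so these medians describe the values and do not test the phases against each other. The 14 G2/M genes that reached the filter's level in both week 70 libraries had a median of -3.54 (-6.05 to 2.47, 12 lower and 1 higher), and the 15 such S phase genes a median of -1.53 (-4.19 to -0.61, all lower). Summed S phase levels were 149 and 161 CPM in the 2 week 70 libraries and summed G2/M levels 155 and 163 CPM, so that their ratio was 1.04 and 1.02. Anln alone gave 82.1 and 98.6 CPM of these G2/M sums, so that the week 70 ratio rests largely on that gene. At week 70, 21 of the 30 G2/M genes had at most 30 counts in both libraries. The cell makeup also changed with age: all 6 mature neuron markers rose (486 to 502 CPM in KO day 15, 12664 to 13955 at week 70), all 6 oligodendrocyte markers rose (77.8 to 83 CPM, then 13303 to 13425), and all 8 immature neuron markers fell. Of 6 intermediate progenitor markers 5 fell, and of 12 neural progenitor markers 6 fell and 4 rose. Their part in the age differences was not tested.

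Mitotic transcripts came close to the detection limit. Mki67 had 127, 125 and 142 CPM in KO day 15 and 1.32 and 0.345 at week 70, from 20 and 5 counts. Its fitted difference was -7.37, -8.63 without week 70 replicate 1 and -6.73 without week 70 replicate 2, and it is 1 of the 18 genes that passed the filter only through day 15. Top2a fell to 2.70 and 1.17 CPM (-6.05, and -6.77 without week 70 replicate 1). Cenpf had 0 and 4 counts and Bub1 7 and 0. Knl1 had 0 counts in both week 70 libraries, which made it at least 163-fold lower than in KO day 15, with a floor of 3 counts per library. Of the 6 members with at most 3 counts in both week 70 libraries, the other 5 were lower by 152-fold for Ccnb1 (95% counting interval 59.0 to 557), 138-fold for Spc25 (63.2 to 376), 197-fold for Ndc80 (54.3 to 1628), 184-fold for Aurkb (50.6 to 1519) and 468-fold for Ttk (83.7 to 18490). The fitted difference of Ccnb1 was -7.26, and -5.48 with its processed copies added. These intervals and the floor cover counting error only.

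Within complexes the losses were unequal. Among the NDC80 subunits, Ndc80 and Spc25 were at 0.0675 and 0.202 CPM at week 70, whereas Nuf2 kept 3.89 and 3.79 CPM and Spc24 2.51 and 2.21. In the checkpoint list Mad2l1 kept 14.5 and 11.5 CPM (-1.63), while Ttk had 0 and 0.0690. Incenp of the passenger complex had 27.4 and 23.9 CPM, overlapping with its 27.2, 27.0 and 24.1 in KO day 15 (-0.12, adjusted p = 0.342), while its partner Birc5 had 0.528 and 0.828 (-5.03). Genes of these sets thus ranged from undetected to the fetal level in the same libraries.

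The median fall of the S phase genes was smaller than that of the G2/M genes, without a test between the phases, and single genes varied. Pcna had 41.8 and 44.9 CPM at week 70 against 69.8 ± 5.82 in KO day 15 (-0.79, adjusted p = 2.89e-05), but its corrected difference was 0.00 and not called, and with its processed pseudogene added the difference was -1.64. The MCM subunits fell by 0.76 for Mcm4 to 2.55 for Mcm6, and remained at 4.68 to 22.2 CPM per library. Their order differed from the day 15 comparison, in which Mcm6 changed least. Both comparisons share the KO day 15 libraries, so that the orders are not independent. Rrm1 kept 23.4 and 24.1 CPM (-1.49), whereas its partner Rrm2 fell to 1.85 and 2.07 CPM (-4.19, adjusted p = 3.21e-09). The ratio of Rrm1 to Rrm2 per kilobase of exon was 0.472 ± 0.0394 in KO day 15 and 3.19 and 2.93 at week 70. Its size, though not its relative change, depends on the exon length of Rrm1, 11012 bases against 3997 in its longest coding transcript. Uhrf1 fell to 1.06 and 0.966 CPM (-4.12).

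**Figure D5:**
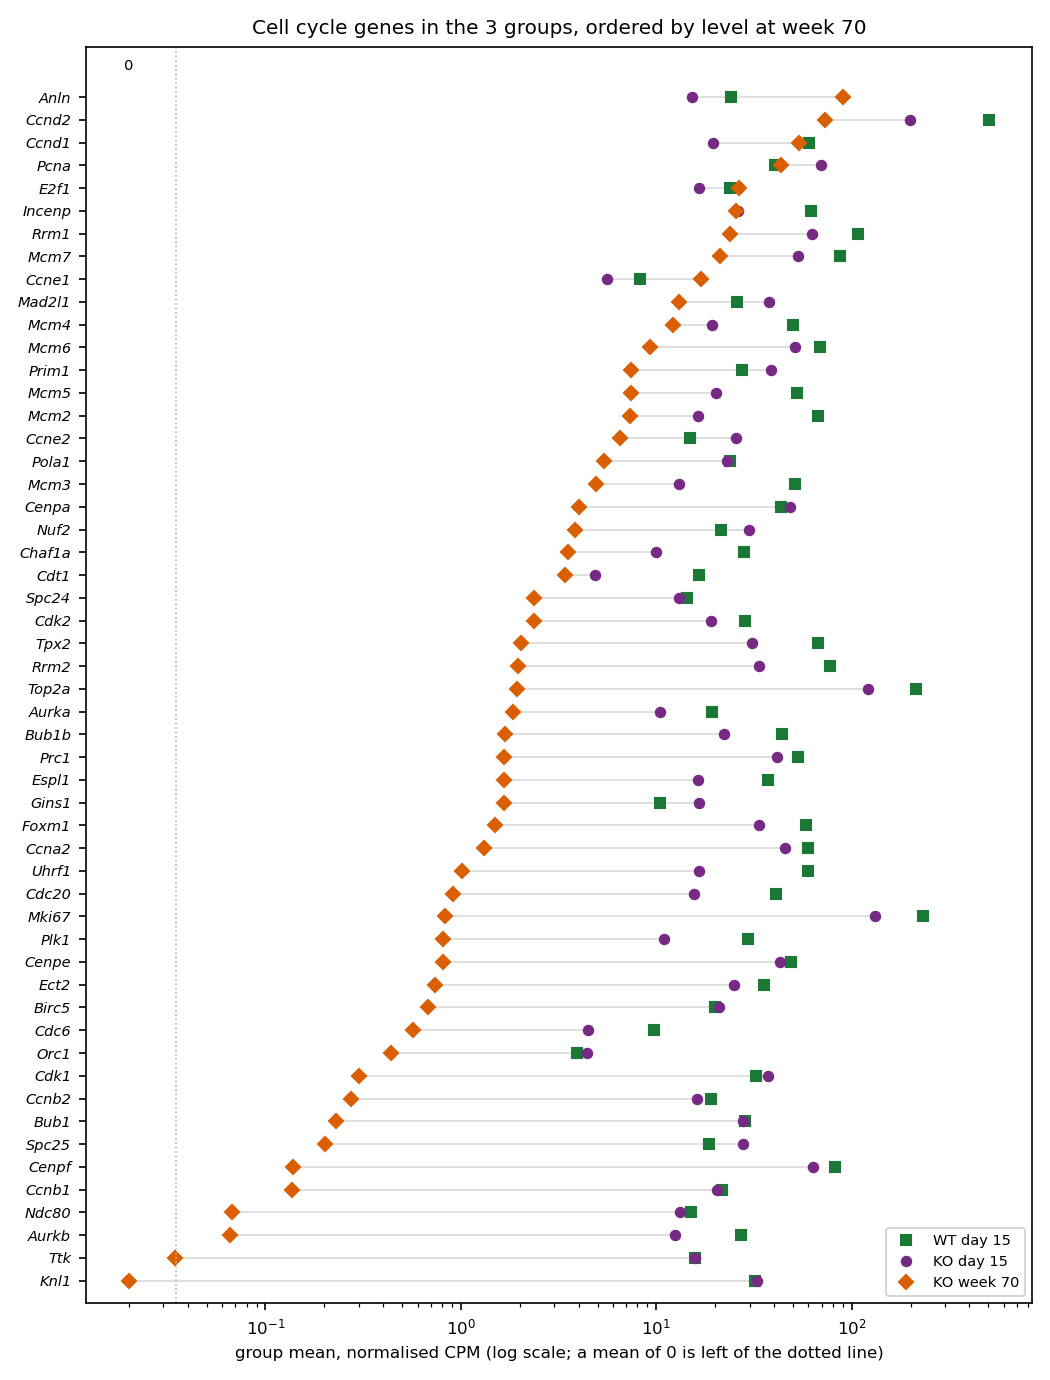
Mean normalised CPM of each of the 53 genes in WT day 15, KO day 15 and KO week 70 on a log axis, ordered by the week 70 level; Knl1, at 0 counts at week 70, is drawn left of the dotted line. Anln, Ccnd2, Ccnd1 and Pcna have the highest week 70 levels, and the 10 lowest are G2/M genes, down to Knl1.

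In all 4 members were higher at week 70 than in KO day 15. Anln, an actin scaffold of the cleavage furrow that is also a component of myelin, had 14.1, 15.9 and 15.7 CPM in KO day 15 and 82.1 and 98.6 at week 70 (2.47, SE 0.11, adjusted p = 9.11e-09), the only riser among the 30 G2/M genes. It rose beside the oligodendrocyte markers given above, and their part in its rise was not tested. Ccnd1 went from 22.3, 19.1 and 17.1 CPM to 57.3 and 49.9 (1.36, SE 0.12, adjusted p = 2.19e-06), and Ccne1 from 5.59 ± 0.524 to 16.8 and 17 (1.5, adjusted p = 1.05e-05). E2f1 rose from 17, 15.4 and 17.1 CPM to 29.8 and 23.0 (0.58, adjusted p = 0.00311), but was not called in the corrected fit (-0.21) or with upper-quartile scaling (0.33). The paralogues went the other way: Ccnd2 fell by 1.55 and Ccne2 by 2.06. The ratio of Ccnd2 to Ccnd1 per kilobase of exon was 5.12 ± 0.302 in KO day 15 and 0.745 and 0.604 at week 70.

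Genes of the same pathways outside the 53 were counted over 4 further lists, of which 139 genes were tested. At day 15, 57 of the 139 were lower (41.0%) and 41 higher (29.5%), with a median of -0.07. The corrected fit gave 55 lower and 19 higher (median -0.18), and upper-quartile scaling 48 lower and 56 higher (median 0.10). Of all tested genes 32.5% were lower and 30.1% higher in the first fit. The shares were 24.5% and 25.9% in the corrected fit and 25.7% and 39.8% with upper-quartile scaling. Of 45 other replication genes 15 (33.3%) were lower and 18 (40%) higher (median 0.07), against 17 and 10 in the corrected fit (median -0.12) and 14 and 21 with upper-quartile scaling. Some polymerase subunits, chosen after their values were seen, were among those lower in both fits: Pold1 (-1.26), Pole (-0.96), Pold2 (-0.67) and Pola2 (-0.64), with corrected values of -0.44, -0.28, -0.38 and -0.32. Not all subunits did so. Pold3 was called higher in both fits (0.17, corrected 0.26). Pole2 was not called in the first fit (0.07) and was called lower in the corrected fit (-0.49). Dnmt1, the maintenance methyltransferase, had 241, 253 and 226 CPM in WT and 90.5, 88.3 and 78.9 in KO (-1.44, adjusted p = 6.52e-08), and Lig1, the ligase of Okazaki fragments, 75.8, 67.1 and 68.3 CPM and 31.9, 33.6 and 33.6 (-1.05, adjusted p = 3.22e-07). Both lay far below the WT range in every KO library. By age 110 of the 139 were lower and 19 higher (median -1.84), beside 44.4% and 37.6% of all tested genes.

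Of 58 other mitotic genes 23 (39.7%) were lower and 17 (29.3%) higher at day 15 (median -0.07), against 20 and 24 with upper-quartile scaling and 22 and 3 in the corrected fit (median -0.19). The condensin subunit Ncapd2 had 201, 201 and 180 CPM in WT and 92.4, 97.3 and 89.7 in KO (-1.02, adjusted p = 3.35e-07), and the checkpoint gene Mad1l1 had 26.2, 25.5 and 23.5 CPM and 9.28, 9.79 and 8.18 (-1.42, adjusted p = 8.53e-07). Among 19 tested G1/S kinases, E2F and MuvB factors 11 (57.9%) were lower and 3 (15.8%) higher (median -0.42). The corrected fit gave 8 lower and 1 higher (median -0.14), and upper-quartile scaling 10 and 5 (median -0.25). Mycn, a growth factor-responsive transcription factor of progenitors, fell from 82.1, 85.6 and 83.9 CPM to 42.0, 38.6 and 38.2 (-1.04, adjusted p = 1.74e-07), and E2f3 from 42.9, 40.0 and 39.0 CPM to 22.1, 21.8 and 22.4 (-0.84, adjusted p = 2.76e-06). These 4 genes were also lower in the corrected fit.

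Inhibitors of the cycle were split. Of 17 tested at day 15, 8 (47.1%) were lower, 3 (17.6%) higher and 6 not called (median -0.23), and with upper-quartile scaling 4 were lower and 6 higher (median -0.05). The corrected fit called 8 lower and 5 higher (median -0.23), and its largest rise was 0.38. Cdkn1c, the inhibitor p57, fell from 172, 114 and 120 CPM to 43.1, 43.1 and 34.9 (-1.71, SE 0.14, adjusted p = 2.57e-06), and Fzr1, which activates the anaphase-promoting complex in G1, from 113, 113 and 118 CPM to 51.4, 51.9 and 44.3 (-1.18, adjusted p = 1.67e-07). The 3 that rose in the first fit are known p53 targets or quiescence genes: Ccng1 from 36.5, 35.8 and 35.5 CPM to 52.9, 55.1 and 63.4 (0.71), Trp53inp1 from 83.9, 90.6 and 82.4 CPM to 122, 134 and 161 (0.74), and Ccng2 from 124, 128 and 124 CPM to 152, 159 and 169 (0.39). Cdkn1a, the inhibitor p21 and also a p53 target, did not rise with them, at 21.8, 15.5 and 19.6 CPM in WT and 14.5, 14.3 and 11.7 in KO (-0.45, adjusted p = 0.0146). Its fall was not called in the corrected fit (-0.23), with upper-quartile scaling (-0.28) or without KO day 15 replicate 3 (-0.35).

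At week 70, 9 of the 17 inhibitors (52.9%) were lower than in KO day 15 and 6 (35.3%) higher, beside 44.4% and 37.6% of all tested genes. Ccng1 reached 163 and 148 CPM (1.34), Gadd45b, a stress-induced gene, 29.0 and 15.9 CPM against 1.21, 2.11 and 1.68 (3.64, adjusted p = 9.59e-07), and Cdkn2d, the inhibitor p19, 52.4 and 52.2 CPM against 27.7, 28.2 and 25.5 (0.85). Rbl2, the pocket protein p130, had 67.5 and 70.2 CPM against 34.5, 35.8 and 38.3 (0.83), Fzr1 91.0 and 101 against 51.4, 51.9 and 44.3 (0.87, corrected -0.09) and Cdkn1a 25.1 and 16.1 against 14.5, 14.3 and 11.7 (0.52, corrected 0.19; 0.17 and not called without week 70 replicate 1, 0.43 and not called without KO day 15 replicate 3). Each of the 6 was above every KO day 15 library at week 70. At day 15 Gadd45b (-0.29, adjusted p = 0.526), Rbl2 (-0.06, adjusted p = 0.511) and Cdkn2d (0.12, adjusted p = 0.211) had not been called between the genotypes.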

How the data were processed

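RNA-seq libraries of whole mouse brain (3 WT day 15, 3 KO day 15, 2 KO week 70) were analysed from 1 table of raw read counts per gene that the authors deposited. Per the submitters' processing notes, the tools were FastQC, cutadapt, Trimmomatic, HISAT2, featureCounts and edgeR. The same notes name GRCm38 and GRCm39, without saying which build the counts use. The use of strand and of reads matching several genes is not given in the sources used here, so values of genes with near-identical copies and of overlapping genes are uncertain: exons of 12 members overlap exons of another gene in the table, above 10% of exonic bases for 6 of them. Of the genes, 351 have no symbol, and all were kept.

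The deposited counts went into edgeR 4.0.16 under R 4.3.3 (filterByExpr, TMM scaling, two-sided quasi-likelihood F-test, Benjamini-Hochberg adjustment, threshold 0.05), on the 6 fetal libraries for genotype and the 5 KO libraries for age. CPM shown for single libraries were scaled over all 8 libraries. The corrected fit used an offset smoothed on transcript length and GC content (mgcv 1.9.3), with GENCODE release M 21 matching 97.3% of identifiers. Pseudogenes were assigned to parents with minimap2 2.31 (at least 50% aligned at 85% identity). The scripts were tested on simulated data. Depth was 14110031 to 20833397 counts per library, and a count of 0 allows up to 3 counts.

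The members and lists were chosen with earlier results of these data known. Values per library are given for the member of each role list with the smallest p, the largest change and the highest mean at day 15, for members called against their list, called in opposite directions by the 2 fits or not called at day 15, for the 2 genes of each further list with the smallest p, and for inhibitors called against their list. Other genes were named after their values were seen. A gene of a marker list is not reported here and was left out of that list's counts and sums. Alternatives were DESeq2 1.42.0, scaling by RLE or the upper quartile, testing without a filter or above a mean count of 10, 1 fit over the 8 libraries, the corrected fit, removal of haemoglobin and mitochondrial genes, protein-coding genes only, a replicate block and each library left out. Adding pseudogene counts to members was chosen after seeing the data.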

Additional observations from a re-analysis of the deposited data

How the results depend on the processing

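Of the alternatives for single genes at day 15, 1198 kept direction and side of the threshold, 14 gained and 38 lost a call and 46 changed sign; by age the numbers were 1127, 4, 20 and 5. The cause of the changes was not tested. The count of members called higher at day 15, 9 in the report, was 3 with length and GC correction and 3 with the replicate block added to it, and that of the further cell cycle genes, 41, was 19 and 15. The KO to WT ratio of summed levels at day 15 was 0.481 for G1/S, 0.630 for S phase and 0.755 for G2/M with RLE scaling, and 0.510, 0.669 and 0.801 with upper-quartile scaling. Leaving out 1 library gave 7 to 8 members higher and 33 to 34 lower at day 15, and 4 higher and 47 to 48 lower by age.

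Replicate numbers did not pair the libraries: same-numbered day 15 libraries had correlations of -0.16, -0.19 and -0.176 in their deviations from the group means, and by age 0.033 and 0.009. With the number as a block, 11184 genes were called at day 15 against 11993, with 33 members lower and 8 higher, and 14876 against 16390 by age, with 47 lower and 4 higher.

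Log2 differences at day 15 that changed sign with length and GC correction, and then with the block added, were Ccne2 -0.0028 and -0.0014, E2f1 0.093 and 0.090, Prim1 -0.089 and -0.087, Nuf2 -0.066 and -0.057, Knl1 -0.21 and -0.20, Cenpa -0.21 and -0.21, Bub1 -0.45 and -0.44, Ttk -0.37 and -0.36, and Rbl2 0.20 and 0.20. By age Pcna had 0.0011 with the correction, E2f1 -0.21 and -0.14, and Fzr1 -0.092 and -0.098. With upper-quartile scaling the signs changed for Pola1 0.16, Ccnb1 0.12, Ndc80 0.025, Spc24 0.087, Cenpe 0.017 and Rbl2 0.11. With protein-coding genes only they changed for Pola1 0.14, Ccnb1 0.11, Ndc80 0.0062, Spc24 0.067 and Rbl2 0.093. Without a filter Knl1 had -0.0086, Bub1 -0.080 and Ttk -0.047. DESeq2 gave Bub1 -0.044 and Ttk -0.012, the fit of all 8 libraries gave Bub1 -0.028, and removal of haemoglobin and mitochondrial genes gave Pola1 0.0071. Leaving out 1 library moved genes that were not called across 0: Pola1 from -0.059 to 0.033, Ccnb1 from -0.18 to 0.076, Knl1 from -0.021 to 0.18, Bub1 from -0.12 to 0.087, Ttk from -0.077 to 0.11 and Gadd45b from -0.58 to 0.25. Depth limits the week 70 values of mitotic genes, of which 6 had at most 3 counts.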

Other observations

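Several processed pseudogenes of members were counted in every fetal library and had few counts or none at week 70, and those of 4 members are given here. Pcna-ps2, a processed copy of Pcna, was counted 1311, 1212 and 1117 times in the WT fetal libraries, where Pcna itself was counted 980, 792 and 702 times. In the KO fetal libraries the copy had 919, 940 and 1079 counts and Pcna 1259, 1173 and 1169. At week 70 Pcna-ps2 had 2 and 6 counts while Pcna had 633 and 651. The copy thus exceeded the parent in every WT library and was below it in every KO library. Counts of Ccnb1-ps were 392, 342 and 283 for WT, 200, 236 and 218 for KO day 15 and 0 in both week 70 libraries, where Ccnb1 had 1 and 3. Gm5487, a copy of Mcm7, gave 260, 322 and 260 counts for WT, 151, 135 and 146 for KO day 15 and 0 in both week 70 libraries, where Mcm7 had 302 and 322. Gm5648, a copy of Uhrf1, gave 162, 130 and 149 counts for WT and 16, 31 and 40 for KO day 15. With the copies added to their parents the day 15 differences were 0.39 for Pcna, -0.16 for Ccnb1, -0.68 for Mcm7 and -1.77 for Uhrf1, and by age -1.64 for Pcna and -1.64 for Mcm7. How the reads were assigned between copy and parent was not tested.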
